A study of Rattus norvegicus with 9 samples.

Results

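The genes of the immediate early transcription factors AP-1, Egr and Myc were followed over the control, thrombin and PD03 groups of rat osteoblasts. They were chosen by symbol as 10 genes: the Fos family (Fos, Fosb, Fosl1, Fosl2), the Jun family (Jun, Junb, Jund), Egr1, Egr2 and Myc. Of these, 9 were measured among the 19085 genes of the table, and all 9 passed the filter on low counts together with 13256 genes in all. Junb was not analysed here. Messenger RNA came from first-passage primary osteoblasts of male Sprague-Dawley rats aged 24 hours, and the cells had been kept for 7 days in osteogenic induction medium with serum, β-glycerophosphate, ascorbic acid and dexamethasone. The control group (3 libraries) received this medium alone, the thrombin group (3 libraries) also received thrombin at 20 U/mL, and the PD03 group (3 libraries) received the same dose of thrombin together with PD0325901, which blocks the kinases MEK1 and MEK2. No group received PD03 without thrombin, so that an effect of PD03 on cells not given thrombin was not measured. The design text gives the dose of PD0325901 as 0.1 μM, and a protocol in the labels for short treatments gives 0.1 mM. As tissue the labels have the knee, while the growth protocol names the calvaria, the bones of the skull vault.

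Immediate early genes are transcribed within minutes of a growth signal, without new protein synthesis, and their transcripts and proteins are short-lived. Thrombin cleaves protease-activated receptors on the cell surface, and one branch of the signal that follows runs through RAS, RAF, MEK and ERK. ERK phosphorylates ternary complex factors that sit with serum response factor on the promoters of Fos and the Egr genes, and it also stabilises Fos family proteins. Fos and Jun proteins pair through leucine zippers to form AP-1, which binds the promoters of many proteases and cytokines. Egr1 and Egr2 are zinc finger factors, and Myc drives genes of growth and ribosome production. The values below are steady levels at day 7 of culture, not the first wave after a stimulus, and the time between the last change of medium and harvest was not stated.

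Total counts per library lay between 15447832 and 19841468. Levels are given as CPM (counts relative to library size after TMM scaling), and FPKM values, which are also divided by gene length, are used only where one gene is set against another. A gene was called when its adjusted p-value (edgeR's quasi-likelihood test, Benjamini-Hochberg over all 13256 genes) was under 0.05 and its log2 fold change exceeded 0.58 in size. The collagen gene Col1a1 and the osteoblast factor Runx2 were well above zero (lowest group means 42900 and 32.1 CPM). The late osteoblast genes Bglap, Ibsp and Dmp1 had group means of at most 0.155 CPM, and Phex was also low (0.548 to 0.712 CPM). The 12 osteoblast markers, with Col1a1 the largest part, summed to 65960 to 72190, 60880 to 64200 and 103300 to 106600 CPM in control, thrombin and PD03 libraries. Runx2 went another way, with means of 42.8, 51.1 and 32.1 CPM. With PD03 against thrombin 6 of 9 tested osteoblast markers had values above 0 and 3 below. The leukocyte gene Ptprc had group means of 0.0392 to 0.147 CPM. The summed level of 10 myeloid markers, most of it Cd14, was 21.2 to 24.2 CPM in the control libraries, 29.4 to 33.3 CPM in the thrombin libraries and 17.9 to 19.6 CPM in the PD03 libraries. None of the 10 was at 0 in all 9 libraries, and Csf1r went another way than Cd14, with means of 0.44, 0.746 and 1.24 CPM in the same order. The summed adipocyte markers were 202 to 213, 98.1 to 104 and 155 to 166 CPM, and the endothelial markers 6.69 to 7.77, 6.36 to 8.51 and 11.1 to 12.6 CPM. Osteoclast markers summed to 148 to 157, 132 to 136 and 181 to 192 CPM, and chondrocyte markers to 94.7 to 106, 69.8 to 76.2 and 82.6 to 90.5 CPM. Each of these sums was mostly 1 gene. They were Lpl (means 207, 99.6 and 158 CPM), Tek (6.46, 6.17 and 9.51 CPM), Ctsk (129, 94.7 and 164 CPM) and Col2a1 (84.4, 49.2 and 56.4 CPM). Other markers of these lists went another way, such as Mmp9 (14.6, 30.9 and 12.7 CPM) and Sox9 (7.68, 14.3 and 16.2 CPM). With thrombin against control, 1 of 3 tested osteoclast markers had a value above 0 and 2 below. Of 6 tested chondrocyte markers, 3 were above 0 and 3 below. The part of these sums in the results was not tested. In such bulk samples, fewer cells that express a gene and less RNA per cell cannot be told apart.

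Upstream sequences are shown for the 3 members whose changes under PD03 differed most in kind: Egr2, which fell steeply, Fosl1, which fell by less, and Jund, which rose. They were taken from a table of RefSeq promoters (build GRCr8), in which 6 of the 9 measured members were matched, and each covers the 250 bases before the annotated start, written 5′ to 3′ in the gene's direction. Egr2 lies at chr20:21054442-21054691 (minus strand), Fosl1 at chr1:212183635-212183884 (plus strand) and Jund at chr16:18769772-18770021 (minus strand). Capitals mark matches to 5 motifs searched on both strands: the CArG box (the site of serum response factor), TGACGTCA (a cyclic AMP response element), TGANTCA (an AP-1 site), GCGNGGGCG (an Egr site) and CACGTG (an E-box).
Egr2: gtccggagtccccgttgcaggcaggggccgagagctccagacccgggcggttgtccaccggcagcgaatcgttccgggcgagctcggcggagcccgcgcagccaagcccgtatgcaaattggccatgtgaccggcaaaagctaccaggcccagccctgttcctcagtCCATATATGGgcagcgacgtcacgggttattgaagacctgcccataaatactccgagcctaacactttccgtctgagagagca
Fosl1: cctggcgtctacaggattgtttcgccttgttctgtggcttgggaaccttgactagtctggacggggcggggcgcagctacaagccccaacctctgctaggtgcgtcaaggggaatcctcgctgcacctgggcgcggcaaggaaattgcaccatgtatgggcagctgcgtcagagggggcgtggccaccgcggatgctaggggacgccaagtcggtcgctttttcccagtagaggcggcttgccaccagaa
Jund: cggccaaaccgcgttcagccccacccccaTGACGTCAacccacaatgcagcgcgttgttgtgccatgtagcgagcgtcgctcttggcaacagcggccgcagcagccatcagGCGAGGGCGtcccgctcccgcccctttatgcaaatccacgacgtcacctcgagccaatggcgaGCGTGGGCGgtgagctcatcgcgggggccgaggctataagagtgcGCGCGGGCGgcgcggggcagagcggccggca

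Egr2 held 1 CArG box, 83 bases before the start, and Egr1 held 2, at 105 and 83 bases before it. A CArG box stood in 1.50% of all 33469 promoters of this length. In Jund there were 1 TGACGTCA, found in 1.59% of all promoters, and 3 GCGNGGGCG, found in 4.29%. Fosl2 held 1 GCGNGGGCG. None of the 5 motifs stood in the windows of Fosl1 and Fosb, TGANTCA (6.34% of all promoters) and CACGTG (5.59%) stood in none of the 6, and no matches overlapped. These are matches of letters and no evidence of binding.

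Among the 9 members, Egr1 and Egr2 changed most. Egr1 (ENSRNOG00000019422), a zinc finger factor induced by growth factors and injury in many cell types, stood at 391, 309 and 318 CPM in the control libraries, at 319, 187 and 223 CPM in the thrombin libraries and at 17.3, 19.9 and 19.0 CPM in the PD03 libraries. Every PD03 library was far below every other library, while the highest thrombin library lay within the range of the control libraries. With PD03 against thrombin Egr1 fell 13.0-fold (log2 fold change -3.70, standard error 0.12, adjusted p = 1.67e-27 by edgeR). Against the control group it fell 18.2-fold (log2 fold change -4.18, standard error 0.12, adjusted p = 6.27e-29 by edgeR). In thrombin against control the log2 fold change of Egr1 was -0.48 (standard error 0.09, adjusted p = 3.12e-05 by edgeR), under the fold threshold and so not called. Without Thrombin replicate 1 the value for Egr1 was -0.73 (adjusted p = 7.94e-13 by edgeR) and called, and without the libraries numbered 1 in all groups it was -0.61 (adjusted p = 3.18e-21 by edgeR) and called.

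Egr2 (ENSRNOG00000000640), known for its part in the myelin programme of Schwann cells and in hindbrain patterning, stood at 17.5, 14.6 and 15.7 CPM in the control libraries, 6.90, 5.81 and 5.77 CPM in the thrombin libraries and 0.795, 1.17 and 0.979 CPM in the PD03 libraries. The groups did not overlap in any comparison, and the order was control, thrombin, PD03 from high to low. Egr2 was the single member called in thrombin against control, where it fell 2.59-fold (log2 fold change -1.37, standard error 0.13, adjusted p = 1.22e-11 by edgeR). Of all tested genes, 8.06% were called in that comparison and 5.44% called lower. With PD03 against thrombin Egr2 fell a further 6.31-fold (log2 fold change -2.66, standard error 0.21, adjusted p = 1.47e-14 by edgeR), to 15 to 18 counts per library. Against control the PD03 libraries were 16.4-fold lower (log2 fold change -4.03, adjusted p = 5.63e-22 by edgeR). Both Egr genes were thus lowest in the PD03 libraries. Whether their values with thrombin differ from each other was not tested.

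**Figure D1:**
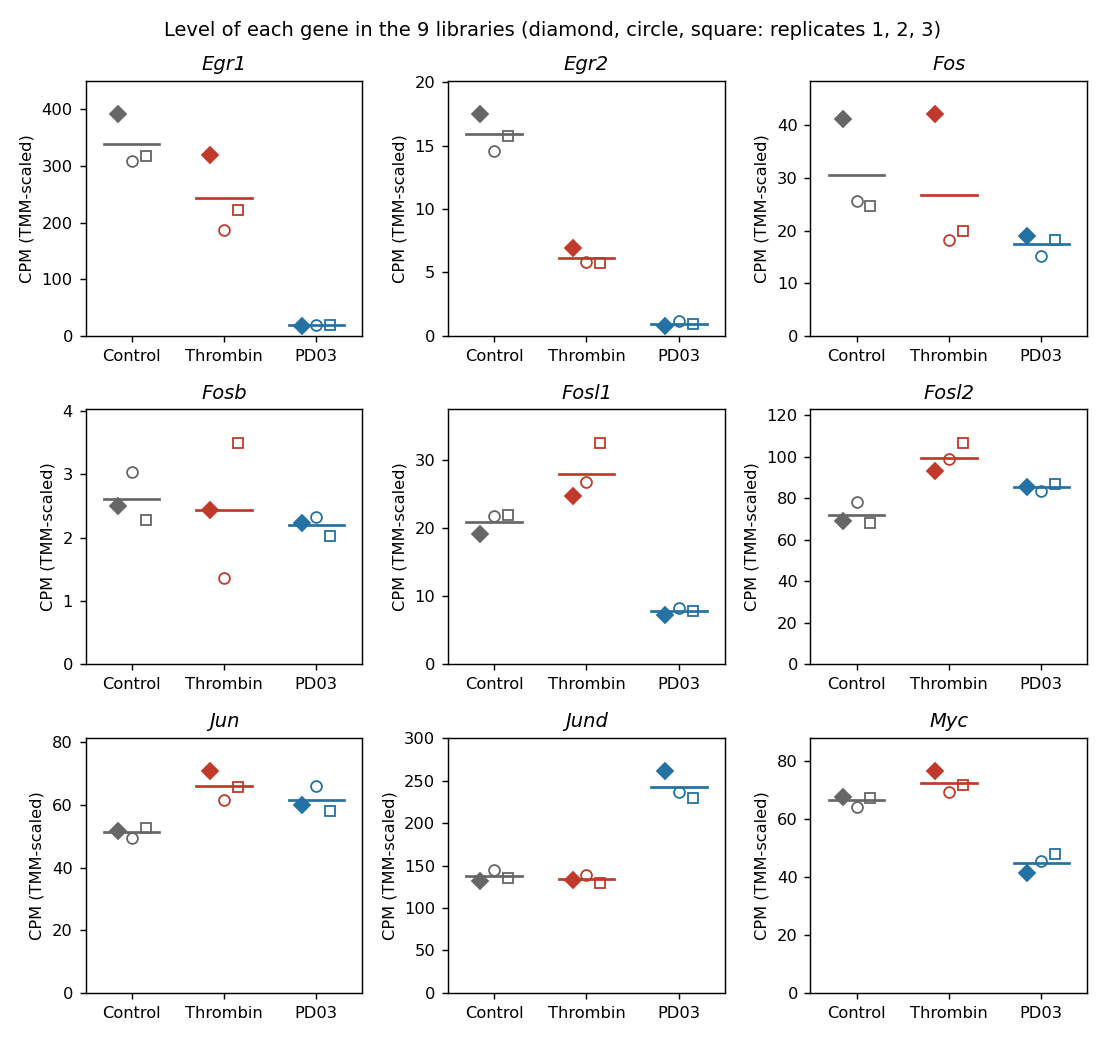
Levels of the 9 measured genes (CPM after TMM scaling, linear axes from 0) in the control, thrombin and PD03 groups. Each symbol is a library (diamond, circle and square for replicates 1, 2 and 3) and each line the mean of 3 libraries. Egr1 and Egr2 are near the axis in the PD03 libraries, at up to 19.9 and 1.17 CPM, and Jund is higher there, at 230 to 261 CPM.

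In the Fos family the members parted. Fosl1 (ENSRNOG00000020552) encodes Fra-1, a Fos protein without the transactivation domain of Fos. Its levels were 19.1, 21.8 and 22.0 CPM in the control libraries, 24.7, 26.9 and 32.6 CPM in the thrombin libraries and 7.26, 8.29 and 7.84 CPM in the PD03 libraries. All 3 groups were apart, with thrombin highest and PD03 lowest. Fosl1 fell 3.61-fold in PD03 against thrombin (log2 fold change -1.85, standard error 0.11, adjusted p = 1.19e-18 by edgeR) and 2.69-fold against control (log2 fold change -1.43, standard error 0.11, adjusted p = 2.65e-14 by edgeR). The difference between thrombin and control was 0.42 on the log2 scale (standard error 0.09, adjusted p = 3.74e-04 by edgeR), which did not reach the fold threshold.

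Fosl2 (ENSRNOG00000068412) encodes Fra-2, which takes part in bone matrix formation. It had 68.2 to 78.2 CPM in the control libraries, 93.0 to 107 CPM in the thrombin libraries and 83.6 to 86.7 CPM in the PD03 libraries, with no overlap between groups. Its log2 fold changes were 0.47 with thrombin (standard error 0.05, adjusted p = 2.78e-09 by edgeR), -0.22 for PD03 against thrombin (adjusted p = 5.25e-04 by edgeR) and 0.25 for PD03 against control (adjusted p = 3.49e-04 by edgeR). None of these passed the fold threshold. Fosl2 and Fosl1 thus had similar values with thrombin (0.47 and 0.42) and unlike values with PD03 against thrombin (-0.22 and -1.85).

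Fos (ENSRNOG00000008015), the founding member of the family, stood at 41.3, 25.7 and 24.7 CPM in the control libraries, 42.1, 18.2 and 19.9 CPM in the thrombin libraries and 18.9, 15.2 and 18.2 CPM in the PD03 libraries. Replicate 1 of the control group and replicate 1 of the thrombin group lay well above the other libraries, and the PD03 and thrombin libraries overlapped. The fall with PD03 was called against thrombin (log2 fold change -0.61, standard error 0.18, adjusted p = 0.0040 by edgeR) and against control (log2 fold change -0.82, standard error 0.18, adjusted p = 1.88e-04 by edgeR). Without Thrombin replicate 1 the first of these was -0.14 (adjusted p = 0.44 by edgeR), so that call rested on 1 library. Without Control replicate 1 the value of Fos against control was -0.53 (adjusted p = 0.019 by edgeR), under the fold threshold. DESeq2 called neither difference in Fos (adjusted p = 0.18 and 0.087). For thrombin against control the log2 fold change of Fos was -0.21 (adjusted p = 0.39 by edgeR), with a 95% interval from -0.53 to 0.12, and it was -0.69 and called without Thrombin replicate 1 (adjusted p = 4.62e-05 by edgeR) and 0.08 without Control replicate 1.

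Fosb (ENSRNOG00000046667) had 25 to 60 counts per library (1.37 to 3.50 CPM), and its groups overlapped in every comparison. Its log2 fold change for PD03 against thrombin was -0.14, with a 95% interval from -0.67 to 0.38. The thrombin libraries of Fosb spread from 25 to 60 counts, and no difference in Fosb was detectable beyond that spread. The fall of Fos with PD03 against thrombin was 1.52-fold, beside 13.0-fold for Egr1.

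Jund (ENSRNOG00000019568) was the member called higher under PD03. JunD is the Jun protein usually kept up in resting cells, and it often opposes the growth effects of Jun. Its levels were 132, 145 and 135 CPM in the control libraries, 132, 139 and 130 CPM in the thrombin libraries and 261, 237 and 230 CPM in the PD03 libraries. Control and thrombin libraries lay in the same range, and all PD03 libraries were above both. Jund rose 1.82-fold against thrombin (log2 fold change 0.86, standard error 0.05, adjusted p = 7.29e-20 by edgeR) and 1.77-fold against control (log2 fold change 0.83, standard error 0.05, adjusted p = 5.75e-19 by edgeR). With thrombin against control its log2 fold change was -0.04, with a 95% interval from -0.13 to 0.06. Every scaling of the libraries kept the rise of Jund with PD03, and over all alternatives its values lay between 0.70 and 0.90.

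Jun (ENSRNOG00000026293), a strong activator of AP-1 target genes, had 49.6 to 52.7 CPM in the control libraries, 61.5 to 70.7 CPM in the thrombin libraries and 58.2 to 66.1 CPM in the PD03 libraries. The control libraries were below all others, whereas thrombin and PD03 libraries overlapped. The log2 fold changes of Jun were 0.36 with thrombin (standard error 0.06, adjusted p = 6.34e-06 by edgeR), 0.26 for PD03 against control (adjusted p = 5.93e-04 by edgeR) and -0.10 for PD03 against thrombin (adjusted p = 0.15 by edgeR), none past the fold threshold. For that last difference, a 95% interval ran from -0.22 to 0.01.

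Myc (ENSRNOG00000004500) stood at 67.6, 64.2 and 67.1 CPM in the control libraries, 76.4, 69.3 and 71.8 CPM in the thrombin libraries and 41.4, 45.3 and 47.9 CPM in the PD03 libraries. The PD03 libraries were below all the others, and the thrombin libraries were a little above the control libraries. Myc fell 1.62-fold with PD03 against thrombin (log2 fold change -0.69, standard error 0.06, adjusted p = 2.70e-13 by edgeR), a fall that was not past a test against the fold threshold itself (glmTreat in edgeR, adjusted p = 0.094). Against control its log2 fold change was -0.57 (adjusted p = 1.69e-10 by edgeR), just under the threshold, and it was -0.68 and called with library totals as the scaling (adjusted p = 1.68e-12 by edgeR). With thrombin against control the value of Myc was 0.13 (adjusted p = 0.091 by edgeR).

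Over the members, 1 of 9 was called with thrombin against control, lower, beside 8.06% of all tested genes. For PD03 against thrombin 6 of 9 were called, 5 lower and 1 higher, beside 15.9% of all tested genes (6.31% called lower and 9.61% higher). For PD03 against control 5 of 9 were called, 4 lower and 1 higher, beside 8.97% of all tested genes (4.07% lower and 4.90% higher). At any fold, 5 members had an adjusted p under 0.05 with thrombin (Fosl1, Fosl2 and Jun higher, Egr1 and Egr2 lower, edgeR), beside 28.7% of all tested genes. The same count was 7 for PD03 against thrombin, beside 49.8%, and 8 for PD03 against control, beside 39.9%. The libraries of the 2 groups did not overlap for 5 members with thrombin, 6 with PD03 against thrombin and 8 with PD03 against control, beside 40.3%, 55.5% and 47.8% of all tested genes. The comparisons share libraries, and the values of each are therefore given side by side. The plot of changes shows these 3 sets of values.

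**Figure D2:**
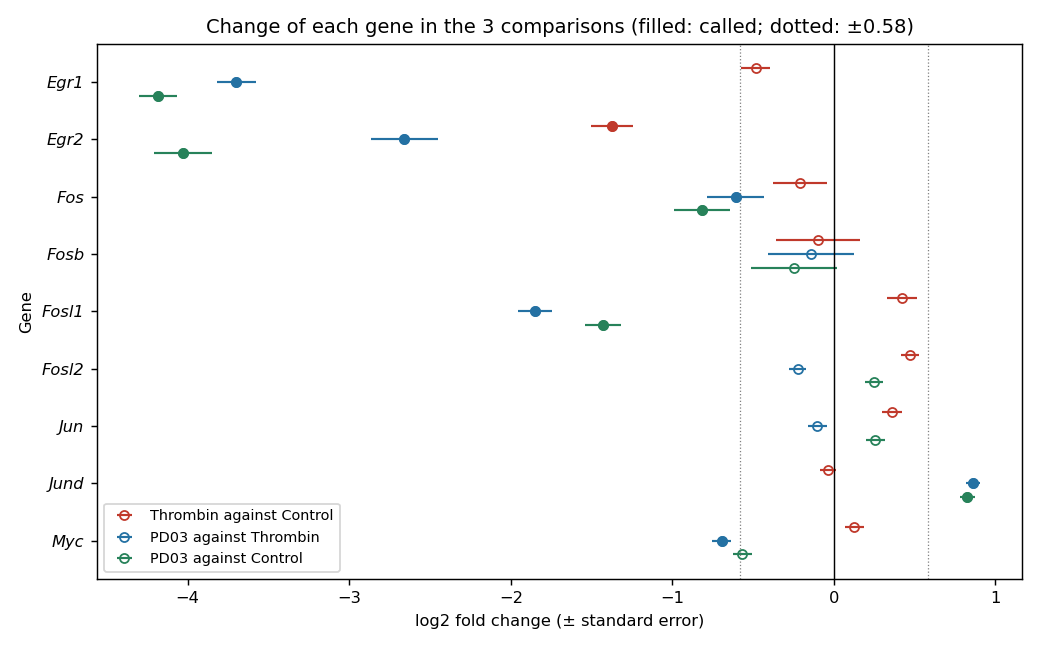
Log2 fold changes of the 9 genes (horizontal axis, with bars of 1 standard error) in the 3 comparisons. Filled points were called and dotted lines mark 0.58 on each side of 0. Egr1 and Egr2 reach -4.18 and -4.03 against control, and Jund is the gene with called values above 0.

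Per length of transcript, the members covered a wide range of levels. In the control group Egr1 was highest, at 112 ± 16.2 FPKM (SD, n = 3), followed by Jund at 84.3 ± 3.51 FPKM, Myc at 29.2 ± 0.988 FPKM and Fos at 19.9 ± 6.25 FPKM. Fosl2 (14.3 ± 1.05 FPKM), Jun (11.7 ± 0.401 FPKM), Fosl1 (6.08 ± 0.404 FPKM) and Egr2 (5.56 ± 0.555 FPKM) came next, and Fosb was lowest at 0.717 ± 0.105 FPKM. The neighbours Fosl1 and Egr2 overlapped in that order and the other neighbours did not. In the thrombin group Jund (81.2 ± 2.85 FPKM) and Egr1 (79.5 ± 22.6 FPKM) overlapped at the top, as did Fosl2, Fos and Jun at 19.6, 17.2 and 14.9 FPKM further down. In the PD03 group Jund led at 138 ± 9.36 FPKM, Myc followed at 18.3 ± 1.32 FPKM, Egr1 was sixth with 5.73 ± 0.410 FPKM and Egr2 was lowest with 0.315 ± 0.0601 FPKM. No neighbours overlapped there.

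The make-up of the Fos family, as each gene's share of the family's summed FPKM within a library, does not depend on the scaling of libraries. Fosl1 made up 15.1% ± 2.89 (SD, n = 3) in the control group, 18.0% ± 4.16 in the thrombin group and 7.28% ± 0.788 in the PD03 group. Its highest PD03 share (8.13%) was below its lowest share in the other groups (11.9%). Fosl2 made up 35.4% ± 5.25, 44.0% ± 8.22 and 54.6% ± 1.68 in the same order, and its PD03 libraries lay above all the others. Fos made up 47.8% ± 8.21, 36.5% ± 12.4 and 36.2% ± 2.64, with overlap between thrombin and PD03, and Fosb at most 2.17% in any library. Of Jun and Jund together, Jund made up 87.8% ± 0.798 in the control group, 84.5% ± 1.24 in the thrombin group and 91.4% ± 0.763 in the PD03 group, with no overlap between groups. With 3 libraries against 3, no exact permutation test of such shares can pass the threshold, and none was run.

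**Figure D3:**
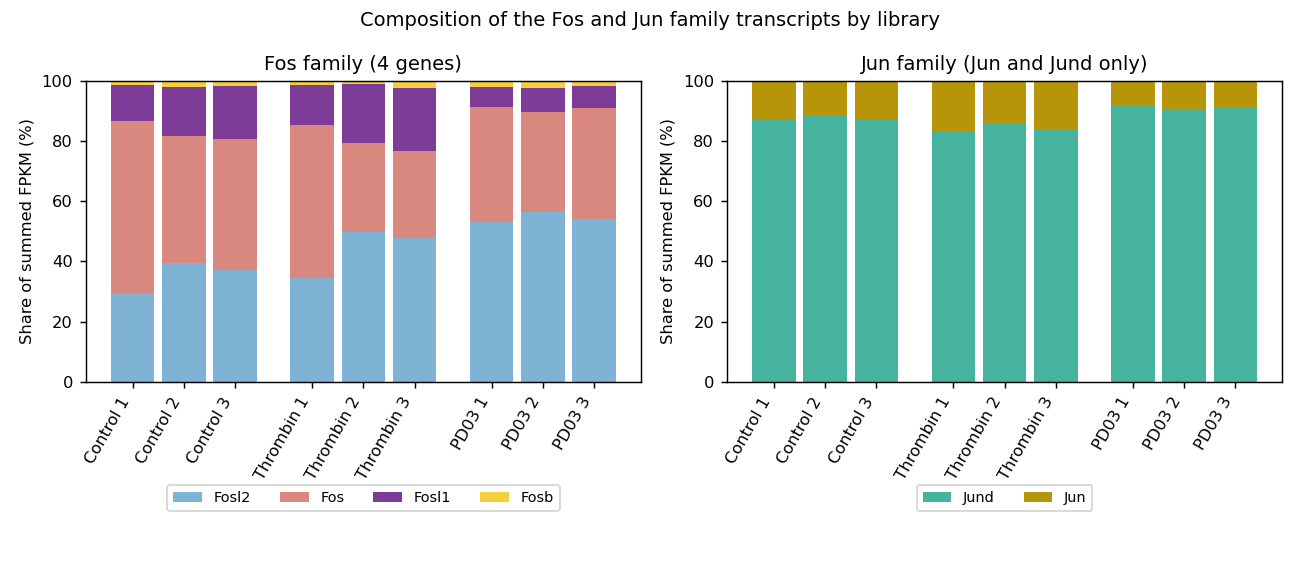
Share of each gene in the summed FPKM of its family (vertical axis, %) for each of the 9 libraries, with the 4 Fos family genes on the left and Jun and Jund on the right. The Fosl1 segment is thinnest in the PD03 libraries (6.58% to 8.13%), and the Fos segment is largest in Control 1 and Thrombin 1 (57.2% and 50.9%).

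The high Fos libraries were both numbered 1. Fos in replicate 1 was 1.64 times the mean of replicates 2 and 3 in the control group, 2.21 times in the thrombin group and 1.14 times in the PD03 group. For Egr1 the same ratios were 1.25, 1.56 and 0.890, and for Fosl1 they were 0.875, 0.830 and 0.900. By the smaller of the ratios in the control and thrombin groups, Fos ranked 1 and Egr1 25 of 10275 genes that averaged 5 CPM or more. This rank leaves out the PD03 group and uses the groups in which Fos was high. It describes that pattern and is no independent evidence of it. Of 25 other tested immediate early genes, 8 were highest in replicate 1 of all 3 groups, among them Ccn1, Zfp36, Ier3 and Klf2 (named after their values were seen), beside 4.87% of all tested genes. For replicates 2 and 3 it was 1 gene each, beside 3.61% and 3.41%. Of the 9 members Fos alone was highest in replicate 1 of all groups. The labels give no reason why libraries numbered 1 should be alike, and across all tested genes same-numbered libraries did not deviate together (Pearson's r over genes from -0.04 to 0.07 in 9 pairs). An r over all genes cannot exclude a shared deviation of fewer genes. Between replicates of a group, the chi-square of the counts over its degrees of freedom was 3.02 to 3.99 for pairs with replicate 1 and 1.82 to 2.13 for replicates 2 and 3, so that replicate 1 stood farther from the others in each group. What set these libraries apart was not tested.

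Other immediate early genes moved in both directions under PD03. Of 25 tested, 9 were called lower and 4 higher against thrombin (median log2 fold change -0.40, beside 0.01 for all tested genes). The shares of all tested genes were 6.31% lower and 9.61% higher. With thrombin against control 1 was called higher and 3 lower (median -0.01, beside -0.01), beside 2.62% and 5.44% of all tested genes. Egr3, of the same zinc finger family, had 24 to 41 counts in the control libraries, 11 to 19 in the thrombin libraries and 1 to 8 in the PD03 libraries. Its log2 fold change with thrombin was -1.18 (adjusted p = 0.012 by edgeR), the same direction as Egr2. The orphan nuclear receptor gene Nr4a1 fell by 1.58 on the log2 scale with PD03 against thrombin (adjusted p = 1.91e-11 by edgeR) and Ier2 fell by 1.55 (adjusted p = 6.20e-19 by edgeR). Klf2, a Krüppel-like factor gene, had 6.76 ± 0.796 CPM with thrombin and 45.1 ± 2.75 CPM with PD03 and rose by 2.74 on the log2 scale (edgeR, adjusted p = 1.32e-23). Nr4a2 rose with thrombin (0.85, adjusted p = 1.74e-10 by edgeR), whereas Arc, a gene of synaptic plasticity, fell (-1.78, adjusted p = 6.29e-04 by edgeR) at 5 to 40 counts in the control and thrombin libraries.

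Of 16 tested genes for other leucine zipper factors, including the Atf, Batf and Maf genes, 3 were called higher and 3 lower with PD03 against thrombin. This stands beside 9.61% and 6.31% of all tested genes. With thrombin 2 were called each way, beside 2.62% higher and 5.44% lower of all tested genes. Atf3, a stress-induced partner of Jun proteins, had mean levels of 3.14 ± 0.377, 1.97 ± 0.864 and 5.73 ± 1.00 CPM in the control, thrombin and PD03 groups and rose by 1.53 against thrombin (edgeR, adjusted p = 3.14e-07). Batf3 rose by 1.02 (adjusted p = 0.011 by edgeR) and the small Maf gene Maff fell by 0.84 (adjusted p = 3.45e-09 by edgeR). With thrombin Batf3 fell by 1.02 (adjusted p = 0.019 by edgeR). Mafa rose by 1.42 (adjusted p = 0.032 by edgeR) at mean levels of 0.398 and 1.09 CPM.

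Upstream factors and kinases gave 14 tested genes, among them Srf, Elk1 and the MEK genes Map2k1 and Map2k2. None was called with thrombin by edgeR, beside 8.06% of all tested genes. With PD03 against thrombin 1 was called higher and 2 lower, beside 9.61% and 6.31% of all tested genes, with values from -0.71 to 0.61. These were Rps6ka3 (0.61, adjusted p = 1.54e-11 by edgeR), Rps6ka1 (-0.71, adjusted p = 4.34e-07 by edgeR) and the ternary complex factor gene Elk3 (-0.59, adjusted p = 2.93e-14 by edgeR). The 14 values with thrombin lay between -0.31 and 0.42. Transcript levels say nothing of the kinases' activity.

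Transcripts of the Dusp, Spry, Spred and Etv families include many that ERK is known to induce as its own feedback. Of 12 tested, 9 were called lower and none higher with PD03 against thrombin (median log2 fold change -0.90, beside 6.31% of all tested genes called lower). The other 3, named after their values were seen, were Dusp4 at -0.38, Spred1 at -0.38 and Spry1 at 0.42 (adjusted p = 1.47e-07 by edgeR), none past the fold threshold. The ERK phosphatase gene Dusp6 had 30.4 ± 1.35, 23.1 ± 3.07 and 4.32 ± 1.05 CPM in the control, thrombin and PD03 groups and fell by 2.40 against thrombin (edgeR, adjusted p = 4.07e-20). Etv4 fell by 2.62 (adjusted p = 1.33e-18 by edgeR) and Etv1 fell by 2.35 (adjusted p = 1.19e-10 by edgeR). With thrombin 1 of the 12 was called, Dusp4, which rose by 0.94 (adjusted p = 2.08e-07 by edgeR), and the median was 0.03, beside 8.06% of all tested genes called.

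Of 22 tested genes known as targets of AP-1, 9 were called higher and 2 lower with thrombin (median log2 fold change 0.52), beside 2.62% and 5.44% of all tested genes. With PD03 against thrombin 17 were called lower and none higher (median -1.22), beside 6.31% and 9.61%. Lif, a cytokine of the IL-6 family, had 38.98 ± 0.495 CPM (SD, n = 3) in control libraries, 113 ± 9.31 CPM in thrombin libraries and 8.49 ± 1.67 CPM in PD03 libraries. Ptgs2, which encodes COX-2, had 90.3 ± 18.2, 251 ± 30.2 and 22.1 ± 2.17 CPM in that order. Thrombin libraries were thus above and PD03 libraries below the control libraries for both genes, with log2 fold changes against thrombin of -3.74 (adjusted p = 2.77e-33 by edgeR) and -3.51 (adjusted p = 6.66e-31 by edgeR). Areg, an EGF receptor ligand, fell by 3.03 (adjusted p = 1.35e-08 by edgeR) to 2 to 10 counts per library. Spp1 rose with thrombin by 1.54 (adjusted p = 3.52e-28 by edgeR). Lif, Ptgs2, Spp1, Mmp9, Cxcl1 and Il6 also stand among the genes the study examined in these samples, so the list's direction is not independent evidence. NF-κB and other factors also act on many of these genes.

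Of the Egr corepressor and target list, 8 genes were tested. Nab2, which encodes a corepressor that Egr proteins induce and that binds them, stood at 95.1 ± 2.05, 80.5 ± 0.726 and 46.2 ± 2.34 CPM in the control, thrombin and PD03 groups and fell by 0.80 with PD03 against thrombin (adjusted p = 1.68e-16 by edgeR). F3, the tissue factor gene, rose by 0.73 (adjusted p = 4.88e-19 by edgeR), and Tgfb1 rose with thrombin by 0.63 (adjusted p = 7.87e-14 by edgeR). In all, 2 of the 8 were called lower and 1 higher with PD03 against thrombin, beside 6.31% and 9.61% of all tested genes. The other lower one was Egr3.

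Of 21 tested Myc target genes, mostly of ribosome production, 20 had values below 0 with PD03 against thrombin. Their median log2 fold change was -0.42, beside 0.01 for all tested genes. Only the nucleolar gene Fbl was called (-0.59, adjusted p = 1.19e-11 by edgeR), beside 6.31% of all tested genes called lower. Over the settings that kept this call rule, scaling by library totals among them, between 0 and 8 of the 21 were called lower. That range leaves out the changed fold thresholds and glmTreat. The 20 values below 0 all had an adjusted p of at most 0.042 by edgeR, so the fold threshold decided most of these calls. With thrombin none was called by edgeR, beside 8.06% of all tested genes. Of the 21 values, 17 were above 0 and the median was 0.10, beside -0.01 for all tested genes. In the Myc network 11 rows were tested, of which 2 carry the symbol Mxd3. With PD03 against thrombin 1 row was called higher and 2 lower, beside 9.61% and 6.31% of all tested genes. Mxd4, which encodes an antagonist of Myc, rose with PD03 against thrombin (mean levels 91.5 ± 2.98 and 163 ± 13.3 CPM, log2 difference 0.83, adjusted p = 1.90e-18 by edgeR). In the same comparison Mycl fell (-1.54, adjusted p = 0.0020 by edgeR). Of the Mxd3 rows, ENSRNOG00000070523 fell (-0.71, 8.48 against 13.8 CPM, adjusted p = 4.51e-06 by edgeR), while the more abundant ENSRNOG00000016539 had 0.15 (32.5 against 29.4 CPM, adjusted p = 0.13 by edgeR), so that Mxd3 as a gene is left uncertain. Mycl was the single one of the 11 rows called with thrombin (1.86, adjusted p = 9.44e-04 by edgeR), beside 8.06% of all tested genes. Its mean levels were 0.385 and 1.39 CPM.

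**Figure D4:**
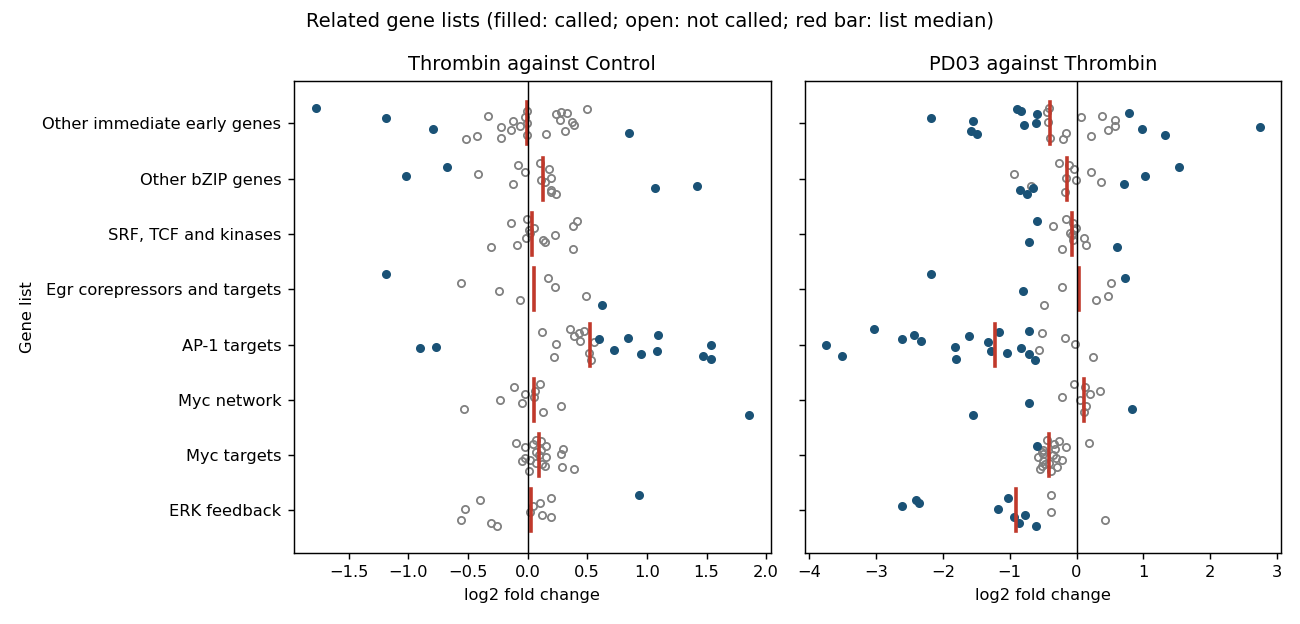
Log2 fold changes (horizontal axes) of the tested genes of 8 related lists, for thrombin against control on the left and PD03 against thrombin on the right. Each point is a gene, filled where called, and red bars are list medians. The AP-1 targets have medians of 0.52 and -1.22, and the ERK feedback genes 0.03 and -0.90.

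Heat shock genes, some of which rise with stress on the cells, were tested as 9 genes. With thrombin none was called by edgeR, beside 8.06% of all tested genes, and 8 had values above 0. With PD03 against thrombin 7 had values below 0, and 9.61% of all tested genes were called higher and 6.31% lower. In that comparison Hspb1 was called higher (0.93, adjusted p = 8.36e-19 by edgeR) and Hsph1 (-0.88, adjusted p = 3.12e-21 by edgeR) and Hspd1 (-0.64, adjusted p = 4.65e-17 by edgeR) lower. The summed level of all 10 listed was 2507 to 2576 CPM in the control libraries, 2799 to 2825 CPM in the thrombin libraries and 2257 to 2367 CPM in the PD03 libraries. Hspa8 was the largest part of this sum, with means of 1252, 1358 and 1108 CPM in the same order. Hspa1b had means of 7.09, 8.54 and 8.16 CPM and was not called in any comparison. The part of the sum in the levels of the members was not tested.

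For each member called in any comparison, the genes most like it were sought by the root mean square difference of log2 CPM over the 9 libraries, each gene centred on its own mean, among 10089 genes that had a symbol and averaged 5 CPM or more. For Egr1 the nearest gene was Egr2 (difference 0.61 on the log2 scale, beside a root mean square of 1.85 for Egr1 about its mean), followed by Upp1 (0.68). For Egr2 they were the metallothionein gene Mt2A (0.36) and Dusp6 (0.48). For Fos they were the ERK inhibitor gene Spry4 (0.21) and Zfp36l1 (0.28), for Fosl1 the EGF receptor inhibitor gene Errfi1 (0.09) and Mtmr10 (0.12). For Jund they were Tagln (0.05), a smooth muscle and actin-binding gene, and Dkk3 (0.06), and for Myc the condensin gene Ncapd2 (0.04) and LOC108348048 (0.05). The 9 libraries fall into 3 groups, so this likeness is mainly that of the group means.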

How the data were processed

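Total RNA of 9 osteoblast cultures (polyA libraries, 3 per group) was sequenced by the authors. They trimmed reads with fastp, aligned them with HISAT2 and counted them per gene. The paper names the genome Rnor_6.0 and the counter featureCounts, whereas the submitters' processing notes name mRatBN7.2 and HTSeq 0.13.5. Neither the annotation release nor the strand setting was given in the sources used here, and without strand, overlapping antisense reads cannot be told apart. The authors deposited raw counts per gene and library, and FPKM values that are the same counts divided by gene length and library total.

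The 10 genes and all gene lists were chosen with earlier results of these data known. Raw counts were filtered with filterByExpr (minimum count 10, 13256 of 19085 genes kept), scaled by TMM and fitted in 1 model of all 9 libraries with edgeR's quasi-likelihood method (edgeR 4.0.16, limma 3.58.1 and DESeq2 1.42.0 in R 4.3.3, figures with Python 3.11.15 and matplotlib 3.10.9). The standard error was taken from the F statistic. The biological coefficient of variation was 4.28%. The ratio of chi-square to its degrees of freedom between same-group libraries was 1.82 to 3.99, above that of pure counting noise, so all were kept. The methods call the samples of a group independent, but nothing says whether cultures came from separate animals, and the p-values measure the spread between these samples. The measured members are named whatever their values. The 95% intervals are 1.96 standard errors to each side. From each other list the rule allowed 3 called genes per comparison by size of change, provided that the higher group averaged 1 CPM or more and that libraries did not overlap. A result that this rule would name is not reported here. Alternatives covered scaling, filter, test, fold threshold, FPKM with 1 or 0.1 added, omission of single libraries, and a block for the replicate number. Leaving out the libraries numbered 1, and the block with library totals, were added after seeing the data. Sequences come from a table of RefSeq promoters (GRCr8), and promoters of Fos, Jun and Myc were not used here.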

Additional observations from a re-analysis of the deposited data

How the results depend on the processing

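The calls of Egr1, Egr2 and Fosl1 under PD03, against thrombin and against control, held in all 24 alternatives run, as did the call of Egr2 with thrombin. The call of Jund with PD03 held in 23 of 24, the exception being a log2 fold change above 1. The call of Fos in PD03 against thrombin was the least stable and held in 14 of 24 alternatives (values -0.84 to -0.14). Against control the call of Fos held in 20 of 24. Myc in PD03 against control, not called above, stayed so in 16 of 24 (values -0.68 to -0.49) and was called lower in the others. For Fos the cause was not tested, apart from the replicates named with its values.

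With no fold threshold 3808, 6608 and 5289 genes were called with thrombin, with PD03 against thrombin and with PD03 against control (1068, 2110 and 1189 in the results above), and the members came to 3 higher and 2 lower with thrombin and 3 higher for PD03 against control. With a log2 fold change above 1 the counts of genes were 505, 935 and 519, with members at 0 higher and 3 lower for PD03 against thrombin and 0 higher against control. With glmTreat they were 460, 1051 and 499, with 3 members lower for PD03 against thrombin, and from FPKM with 1 added they were 543, 1254 and 676. Leaving out 1 library gave 1 to 3 members lower with thrombin (3 without Thrombin replicate 1, where Egr1 and Fos joined), and leaving out the 3 libraries numbered 1 gave 2.

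Values that were not called above changed sign when 1 library was left out. With thrombin against control the values ran from -0.69 to 0.080 for Fos (highest without Control replicate 1, and called at its lowest, without Thrombin replicate 1), from -0.063 to 0.0063 for Jund (highest without Control replicate 2) and from -0.46 to 0.20 for Fosb (highest without Thrombin replicate 2). For PD03 against thrombin they ran from -0.45 to 0.21 for Fosb (highest without Thrombin replicate 3).

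Over all tested genes the same-numbered libraries did not deviate together (r from -0.04 to 0.07), which cannot exclude something shared by fewer genes. With the replicate number as a block, 1067, 2103 and 1187 genes were called, and among the members only Fos in PD03 against thrombin changed its call, to -0.57 (adjusted p = 7.89e-06 by edgeR), under the fold threshold.

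From raw counts, not divided by length, the shares in the Fos family were 24.1%, 16.9% and 15.5% for Fos and 57.1%, 63.7% and 75.7% for Fosl2 in the control, thrombin and PD03 groups, and Jund made up 72.8%, 67.0% and 79.8% of Jun and Jund. Here the change follows from the lengths. With library totals as the scaling, the median of all genes for PD03 against control was -0.12 and the share of called genes that were higher 34.1% in place of 54.6%. For PD03 against thrombin that share was 46.5% in place of 60.4%, and no called member changed direction. The members with the fewest counts were Egr2 in the PD03 libraries (15 to 18 counts) and Fosb (25 to 60 counts), and their values are the least precise by counting error.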
